A study of Homo sapiens with 6 samples.

Results

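The immune checkpoint and suppressive ligands described here are 10 genes whose products restrain T cells and natural killer cells, and they were picked by name from the 27738 genes of the table. They were CD274, PDCD1LG2, CD276, NT5E, ENTPD1, TGFB1, TGFB2, PVR, NECTIN2 and LGALS9, and each was represented by its RefSeq accession with the highest base mean. The base mean is the average over the 6 libraries of the reads of an accession, each library divided by its size factor. RNA came from U87, an established human glioblastoma cell line, from 3 libraries with the label EGFR+vIII and another 3 with EGFR+vIII TLR2 KO. Both groups carry the label of EGFR, the epidermal growth factor receptor, with vIII, its constitutively active deletion mutant, so the groups differ by the knockout of TLR2, a receptor of innate immunity. The sources used here do not say if the knockout line is 1 clone, nor if libraries of 1 group were separate cultures, so p-values reflect only library-to-library spread, possibly technical.

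The comparison asks how tumour cells with and without TLR2 differed in the RNA of molecules that hold back immune cells. As background, CD274 (PD-L1) and PDCD1LG2 (PD-L2) bind PD-1 on T cells, and CD276 (B7-H3) is a relative in the B7 family. ENTPD1 (CD39) and NT5E (CD73) are ectoenzymes that act in sequence outside the cell, turning ATP into AMP and AMP into adenosine, which dampens lymphocytes. TGFB1 and TGFB2 are secreted cytokines that are held latent until released. PVR (CD155) and NECTIN2 (CD112) are adhesion proteins that bind TIGIT, an inhibitory receptor, and CD226, an activating one, and LGALS9 (galectin-9) is a sugar-binding ligand of TIM-3. Glioblastoma is known for a strongly suppressive environment, and several of these ligands are studied in it.

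Of the 10 genes, 6 had an adjusted p in the authors' deposited table, 1 had reads but no adjusted p, and 3 were listed at 0. NT5E rose and TGFB1 fell, both by about the same factor, and CD274, PDCD1LG2, PVR and NECTIN2 did not pass the threshold of an adjusted p under 0.05. The count is therefore 1 higher and 1 lower of 6, against 12.4% higher and 12.7% lower (25.1% in either direction) for the 9372 genes tested in the authors' deposited table. Counted by accession in the authors' deposited table, the shares were 11.6% higher and 11.9% lower (23.5% in either direction). With 6 genes, a count of 2 is close to that background and is no result about the group. The median log2 fold change of the 6 was -0.11, beside 0.02 over all tested accessions. Fold changes are read as knockout over EGFR+vIII because the name of the authors' deposited table puts the groups that way round. TLR2 cannot check that order, since its 8 accessions are all listed at 0 in the authors' deposited table.

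**Figure D1:**
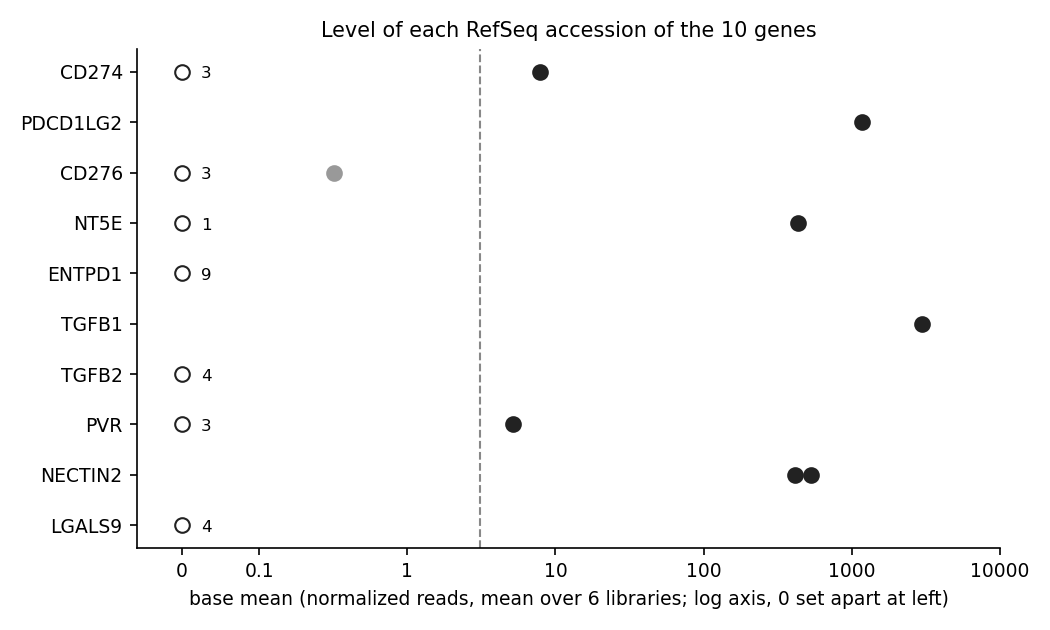
Base mean of every RefSeq accession of the 10 genes (x axis, normalized reads averaged over 6 libraries, log scale, with accessions listed at 0 set apart at the left as open circles beside their number). Filled black circles carry an adjusted p, the grey circle does not, and the dashed line marks 3.11, below which no accession has an adjusted p. TGFB1, PDCD1LG2, NECTIN2 and NT5E stand furthest right, CD274 and PVR just right of the line, and ENTPD1, TGFB2 and LGALS9 have no accession above 0.

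NT5E, the enzyme that makes extracellular adenosine, was higher in the knockout. Its accession NM_002526 had a base mean of 435 in the authors' deposited table, above 71.7% of tested accessions. Together with the fold change of the authors' deposited table, this corresponds to a level of 345 normalized reads in EGFR+vIII and 524 in the knockout. The rise was 1.52-fold (95% interval 1.25 to 1.84, adjusted p = 0.000177 in the authors' deposited table). The interval lies wholly above no change, and it holds factors both below and above 1.5.

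NT5E lies on chromosome 6 (85450083 to 85495784, GRCh38). In the authors' deposited table it has 2 accessions, of which NM_001204813 is listed at 0. In the exon models of GENCODE 29 that are matched to these accessions, NM_002526 holds 3548 exon bases, of which 150 are in no exon of NM_001204813. Those 150 bases are exon 7 of 9, a coding exon of 50 codons' length on the plus strand, at chr6:85490508-85490657. It is shown because its presence is what tells the accession with reads from the accession without, by the GENCODE models:
NT5E exon 7: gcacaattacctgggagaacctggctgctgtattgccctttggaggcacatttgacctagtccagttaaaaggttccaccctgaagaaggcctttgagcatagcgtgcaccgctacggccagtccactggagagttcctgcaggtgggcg
NM_001204813 skips this exon, and its own model also has 520 bases outside that of NM_002526, so bases of its own were not lacking in the accession listed at 0. The sources used here do not say how reads in bases shared by both accessions were counted. Whether the levels and the change of NT5E describe the whole gene or mainly exon 7 is therefore not settled.

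TGFB1, the ligand with the highest base mean, moved in the opposite direction. Its single accession NM_000660 (chromosome 19, 41330323 to 41353922, minus strand) had a base mean of 2966 in the authors' deposited table, above 90.9% of tested accessions. The fold change of the authors' deposited table corresponds to 3559 normalized reads in EGFR+vIII and 2374 in the knockout. TGFB1 thus fell by 0.58 on the log2 scale (SE 0.13), with an adjusted p of 4.26e-05 in the authors' deposited table. As a factor its 95% interval runs from 1.26-fold to 1.78-fold lower, and it also holds factors on both sides of 1.5. No exon of another GENCODE gene overlaps the matched exon model of TGFB1, NT5E or PDCD1LG2.

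Both calls depend on how strictly a change is defined. When the deposited Wald scores (fold change divided by its SE) were scaled by their own central spread, the adjusted p rose to 0.147 for NT5E and 0.0784 for TGFB1. Tested against a minimum change of 1.5-fold, each had an adjusted p of 1.

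**Figure D2:**
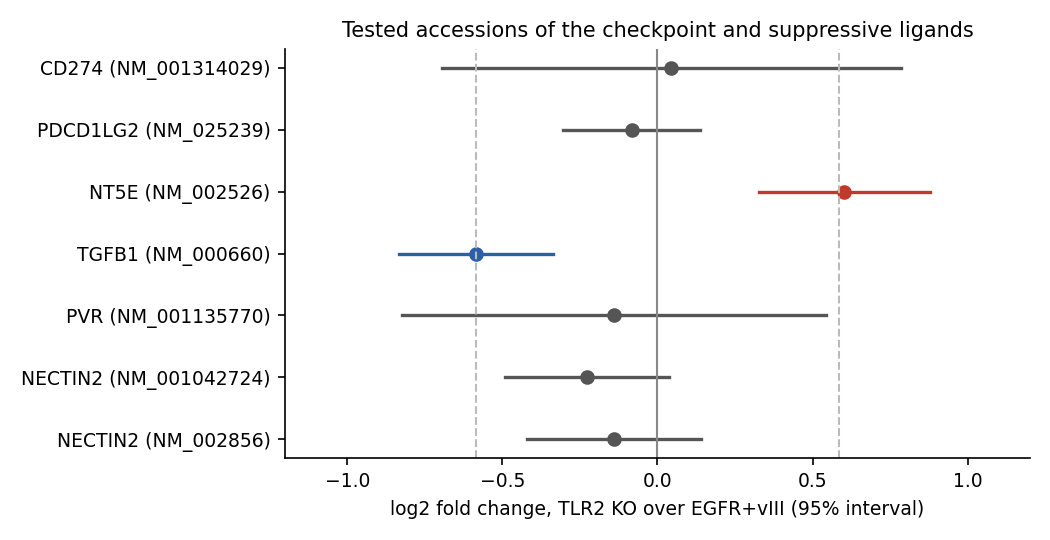
Log2 fold change, knockout over EGFR+vIII, with its 95% interval (x axis) for the 7 accessions of 6 genes with an adjusted p in the authors' deposited table. The solid line marks no change and the dashed lines a change of 1.5-fold. NT5E (red) lies wholly to the right of 0 and TGFB1 (blue) wholly to the left. The intervals of CD274 and PVR are the widest.

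Both genes were then set against the genes around them. The median log2 fold change of the 23 tested genes within 5 Mb of NT5E was 0.03. Set against that median, NT5E was at 0.57 on the log2 scale, with an adjusted p of 0.000364. The 4 tested genes nearest to NT5E had log2 fold changes above 0, the direction of NT5E, in the authors' deposited table. The nearest was LINC02535, a long noncoding RNA, at 0.70 on the log2 scale (SE 0.35), with 0.141 as its adjusted p in the authors' deposited table. SNORD50A and SNORD50B, small nucleolar RNAs hosted by SNHG5, were at 0.33 (adjusted p = 0.613) and 0.37 (adjusted p = 0.547) in the authors' deposited table. SNHG5, a noncoding RNA that lies 205 kb away, was the only one of the 4 to pass, and rose by 0.31 in log2 (SE 0.11), and the authors' deposited table has its adjusted p at 0.0181. Around TGFB1 the median of 110 tested genes was 0.10, and TGFB1 was lower by more against it, at -0.69 (adjusted p = 8.7e-07). The 4 tested genes nearest to TGFB1 had log2 fold changes above 0 in the authors' deposited table. They were B9D2 (0.09), CCDC97 (0.29), HNRNPUL1 (0.12) and EXOSC5, a subunit of the RNA exosome, which was the only one of them to pass the threshold (0.64, adjusted p = 3.4e-10).

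**Figure D3:**
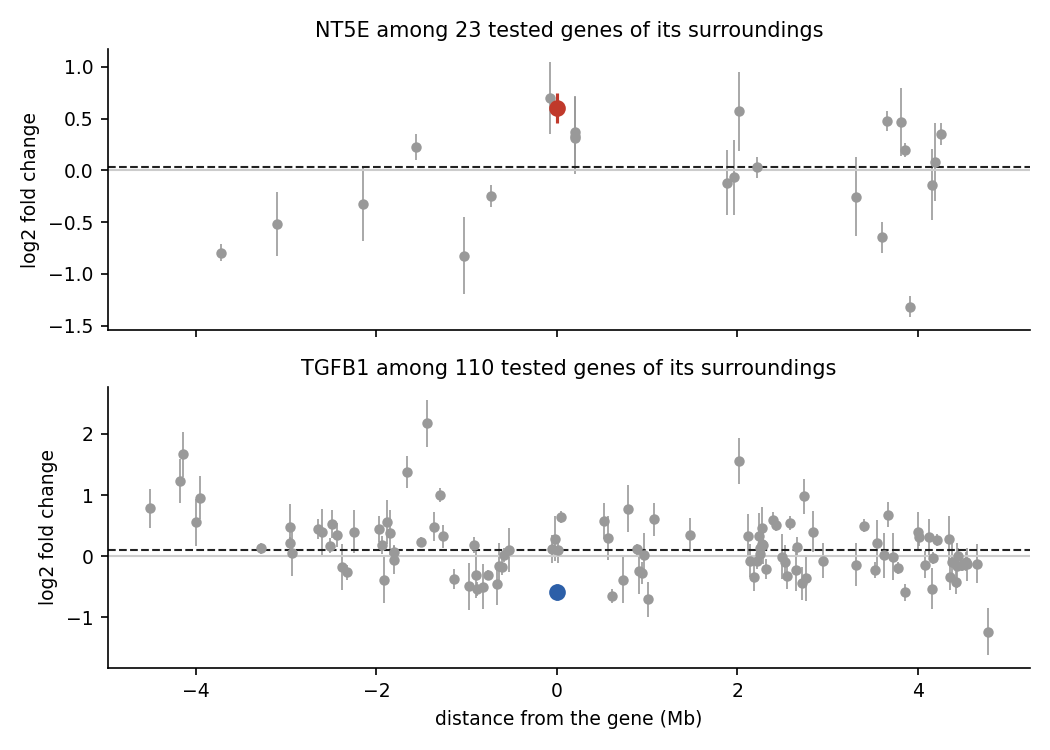
Log2 fold change with its SE (y axis) of tested genes within 5 Mb, by distance from NT5E (upper panel) and TGFB1 (lower panel) in Mb. The dashed line is the median of the neighbours, 0.03 and 0.10. NT5E (red) lies above its line and TGFB1 (blue) below its line.

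The sequences upstream of the 2 called genes were compared with those of all genes. RefSeq's promoter table (GRCh38.p14) held 9 of the 10 genes, and the 250 bases before the annotated start were searched on both strands. The window of NT5E (chr6:85449833-85450082, plus strand) and that of TGFB1 (chr19:41353923-41354172, minus strand) are shown because these genes moved in opposite directions. The window of CD274 (chr9:5450292-5450541, plus strand) is shown because its gene is the best known of these ligands. Capitals mark GGGCGG, the box bound by SP1, or its reverse complement in all 3. They also mark TGACG, a cAMP response half-site, in NT5E, and the reverse complement of an interferon response element in CD274.
NT5E: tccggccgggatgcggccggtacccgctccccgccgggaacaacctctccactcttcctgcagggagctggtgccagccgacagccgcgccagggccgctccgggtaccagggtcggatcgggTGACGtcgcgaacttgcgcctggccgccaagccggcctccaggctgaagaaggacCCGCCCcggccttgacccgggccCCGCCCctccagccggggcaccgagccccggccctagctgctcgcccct
TGFB1: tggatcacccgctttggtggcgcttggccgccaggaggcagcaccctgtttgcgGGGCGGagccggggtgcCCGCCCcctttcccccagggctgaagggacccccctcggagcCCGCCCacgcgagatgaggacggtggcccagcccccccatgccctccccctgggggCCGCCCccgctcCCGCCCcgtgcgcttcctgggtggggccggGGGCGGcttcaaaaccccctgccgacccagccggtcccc
CD274: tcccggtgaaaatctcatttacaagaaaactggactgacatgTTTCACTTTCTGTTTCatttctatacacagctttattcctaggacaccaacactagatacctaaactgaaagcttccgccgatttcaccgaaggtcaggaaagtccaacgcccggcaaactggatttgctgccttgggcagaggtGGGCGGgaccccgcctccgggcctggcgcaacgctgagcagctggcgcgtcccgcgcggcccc
These letters are a description of the windows and not evidence of a bound factor.

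The windows of NT5E and TGFB1 were both rich in G and C, at 75.2% and 76.8%, where the median of 35116 promoters was 58.0%. TGFB1 held 6 SP1 boxes and NT5E 2, and CD274 held 1. Such a box was in 42.6% of all promoters and in 5 of the 9 windows of these genes, those of CD274, CD276, NT5E, TGFB1 and NECTIN2. TGACG was found in NT5E and TGFB2 and in 21.2% of all promoters. CD274 held 2 overlapping matches of the interferon response element, found in 3.02% of all promoters, and 1 match of TTCNNNGAA, a STAT site, found in 6.57%. Neither the NF-kB site nor TGANTCA, an AP-1 site, was in any of the 9 windows, and they were in 0.527% and 6.57% of all promoters.

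The ligands of PD-1 lie side by side on chromosome 9, with 40.0 kb between CD274 (5450542 to 5470554) and PDCD1LG2 (5510531 to 5571282). PDCD1LG2, by its single accession NM_025239, had a base mean of 1166 in the authors' deposited table and corresponded to 1199 normalized reads in EGFR+vIII and 1133 in the knockout. The fold change of PDCD1LG2 was 0.944 (95% interval 0.811 to 1.10, adjusted p = 0.695 in the authors' deposited table). A change of PDCD1LG2 as large as that of NT5E or TGFB1 lies outside this interval.

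CD274 had far fewer reads in the table. Of its 4 accessions in the authors' deposited table, 3 are listed at 0, among them NM_014143, and the remaining one, NM_001314029, has a base mean of 7.90. Base means this low are averages of whole reads, each divided by the size factor of its library, and the reads of each library could be recovered. NM_001314029 had 3, 7 and 14 reads in the EGFR+vIII libraries and 8, 8 and 8 in the knockout libraries, in no order of replicates. The sums were equal, 24 reads in each group, and the knockout values lay within the range of EGFR+vIII. The deposited fold change of CD274, 1.03, comes with a 95% interval from 0.618 to 1.72 and, in the authors' deposited table, an adjusted p of 0.96. Deposited fold changes are drawn towards 0 where reads are few. At this depth a change of the size seen for NT5E was not detectable. In the GENCODE models NM_014143 has 0 exon bases that no other accession holds, and NM_001314029 has no matched model. The level of CD274 as a whole is therefore not settled by this table.

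The TIGIT ligands PVR and NECTIN2 are neighbours on chromosome 19, 180 kb apart. PVR (44643910 to 44666162) had reads in 1 of 4 accessions, NM_001135770, with a base mean of 5.18 in the authors' deposited table. In the GENCODE models NM_001135770 is the only accession of PVR with exon bases that no other accession holds, 194 bases at chromosome 19, 44658901 to 44659094. Its recovered reads were 4, 5 and 10 in the EGFR+vIII libraries and 0, 6 and 7 in the knockout libraries, in all 19 and 13. The groups overlapped, and 1 knockout library had no read at all. The deposited fold change of PVR was 0.907 (95% interval 0.565 to 1.46, adjusted p = 0.849 in the authors' deposited table).

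**Figure D4:**
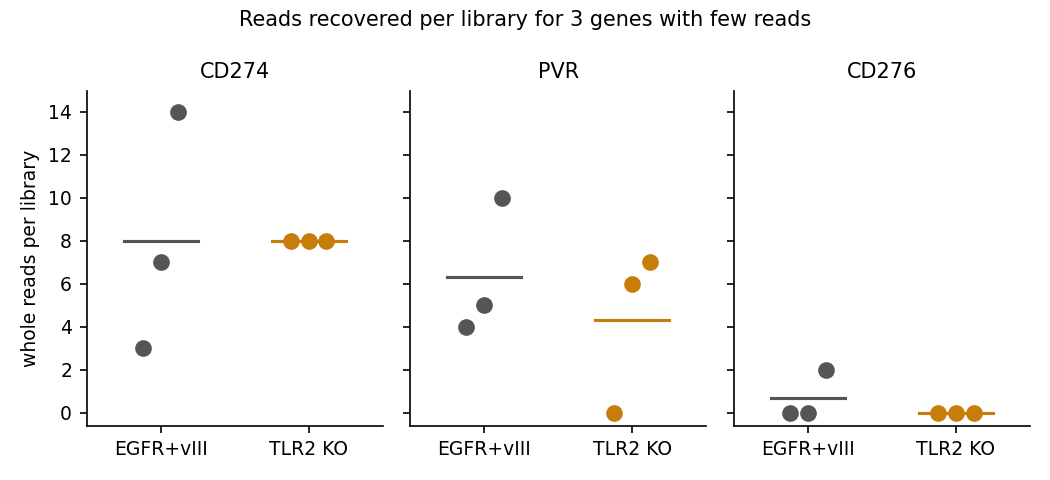
Whole reads per library (y axis) recovered from the base means of CD274, PVR and CD276, for the 3 EGFR+vIII libraries (grey) and the 3 knockout libraries (orange), with the mean of each group as a bar. CD274 has a mean of 8 reads in both groups, the groups overlap for PVR, and CD276 has 2 reads in a single EGFR+vIII library.

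NECTIN2 (44846297 to 44889223) was well measured, and by both of its accessions. NM_001042724 had a base mean of 529 and NM_002856 one of 413 in the authors' deposited table. The fold change of the first was 0.854 (95% interval 0.711 to 1.03, adjusted p = 0.245) and that of the second 0.908 (interval 0.747 to 1.10, adjusted p = 0.578), both in the authors' deposited table. Neither passed, and both intervals leave out a fall as large as that of TGFB1 read at its centre. In the GENCODE models, 1424 exon bases are found in NM_001042724 alone and 1070 in NM_002856 alone. Per kb of these bases their levels were near each other, at 372 and 386 normalized reads. An antisense gene overlaps 5.19% of the exon bases of NM_001042724, and no source used here says if the libraries were stranded.

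Levels can be compared between genes per kb of exon. TGFB1 came first with a level of 1071 normalized reads per kb, followed by PDCD1LG2 with 493. NECTIN2 by NM_001042724 had a level of 215 and NT5E one of 122 normalized reads per kb of the whole model. This order depends on the denominator: NT5E stood at 2897 normalized reads per kb when only its own 150 bases were used. The place of NT5E in the order is therefore not settled by this table, and the spread of the levels between libraries is not in it.

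The other 4 genes, CD276, ENTPD1, TGFB2 and LGALS9, gave no usable comparison. CD276 had 2 reads, both in 1 EGFR+vIII library, and none in the knockout, by accession NM_001329628 (chromosome 15, 73683944 to 73714514) with a base mean of 0.317 in the authors' deposited table. ENTPD1 (chromosome 10, 95694185 to 95877266), the enzyme upstream of NT5E, is listed at 0 in all 9 accessions in the authors' deposited table. The same holds for all 4 accessions of TGFB2 (chromosome 1, 218345336 to 218444619) and of LGALS9 (chromosome 17, 27631188 to 27649560) in the authors' deposited table. A listing at 0 is common and is no proof of silence. In the authors' deposited table, 30.0% of 7927 protein-coding genes with 1 accession are listed at 0, and 48.1% of 1534 genes with 4 accessions. In the models matched to TGFB2, 84 exon bases of NM_001135599 and none of NM_003238 are in no other accession, and LGALS9 has 96 such bases in NM_009587 alone. For ENTPD1 the accession NM_001098175 has 3256 such bases and is still listed at 0.

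Genes that work with these ligands were taken as 6 whole lists, 98 genes in all. Each was again represented by its accession with the highest base mean, and its change is that of this accession. Of these, 43 were tested, and the authors' deposited table calls 10 higher and 9 lower. That is 44.2% called, beside the 25.1% of all tested genes. The shares were not matched for base mean, and 17 of the 19 calls had one of 100 or more. The lists were also chosen with earlier results of these data known. The gap between the shares is therefore no result about these lists. Of these 19 calls, 10 were kept with scaled Wald scores, and those lost were CMTM4, CMTM6, IRF2, ADORA2B, PANX1, LTBP1, LTBP2, AFDN and HAVCR2. Single lists hold from 2 to 18 tested genes. Their counts stand beside 12.4% higher and 12.7% lower over all tested genes, and their medians beside 0.02 over all tested accessions. With so few genes, a count near these shares is no result about its list.

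**Figure D5:**
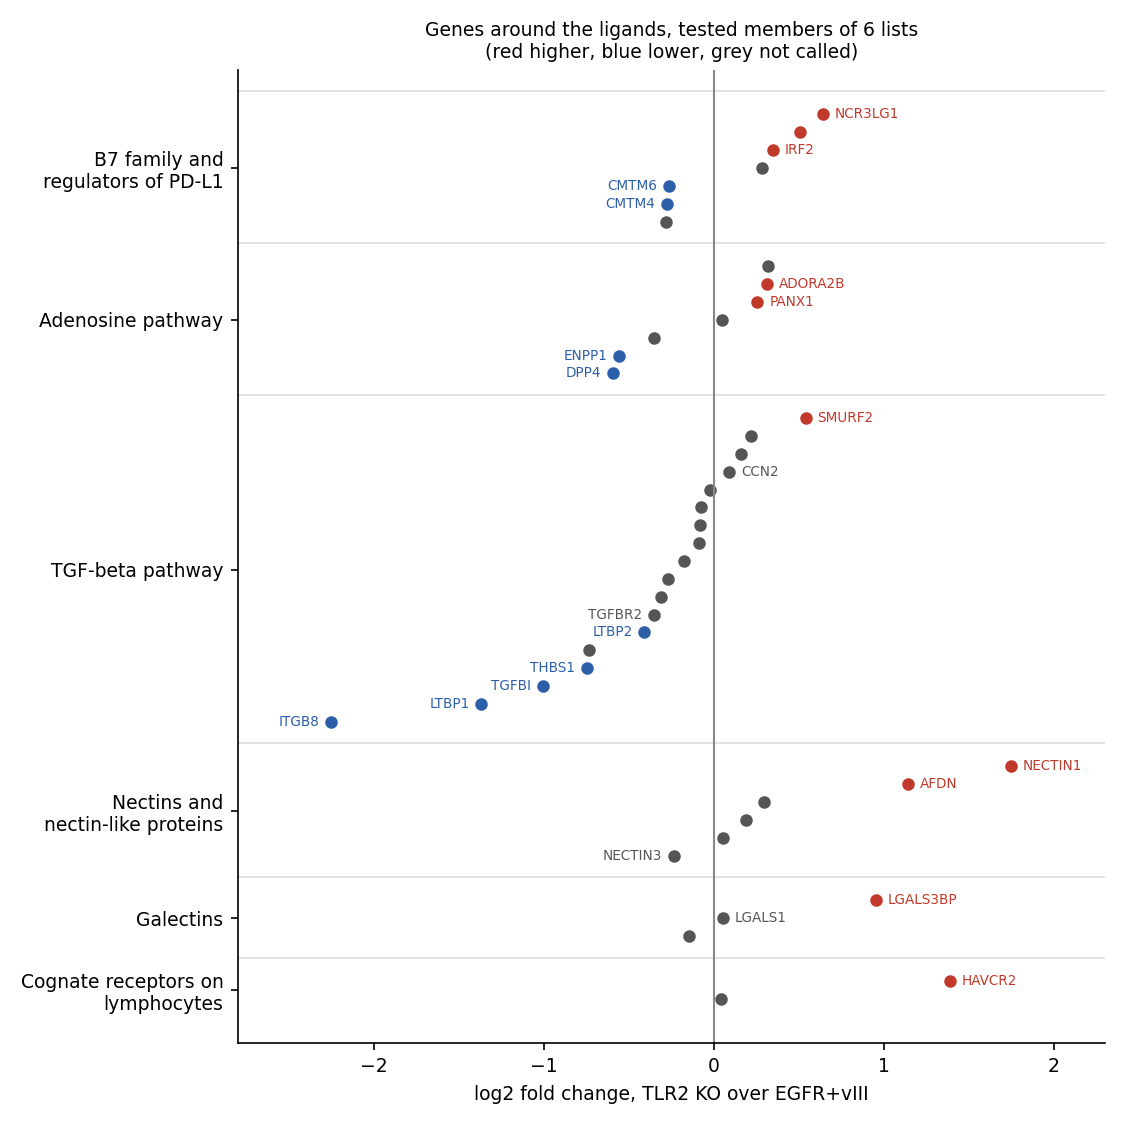
Log2 fold change, knockout over EGFR+vIII (x axis), of the 43 tested genes of 6 lists, sorted within each list. Red marks genes called higher, blue genes called lower and grey genes that did not pass, and only genes described in the text carry a name. In the TGF-beta list 5 of 6 called genes lie left of 0, from -2.25 for ITGB8 to -0.41 for LTBP2.

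The TGF-beta list tells how the cytokine is stored, released and read. Of 18 tested genes the authors' deposited table calls 5 lower and 1 higher, with a median log2 fold change of -0.22. ITGB8, an integrin chain that frees TGF-beta from its latent form, was 4.77-fold lower (SE 0.11 on the log2 scale, adjusted p = 5.6e-96 in the authors' deposited table). In the authors' deposited table LTBP1, which tethers latent TGF-beta to the matrix, fell by 1.37 (log2, SE 0.37, adjusted p = 0.00173), from a base mean of only 19.5. On that log2 scale LTBP2, of the same family, fell by 0.41 (SE 0.11) and THBS1, a matrix protein that can activate TGF-beta, by 0.75 (SE 0.07), as the authors' deposited table gives them. TGFBI, a matrix protein induced by TGF-beta, fell by 1.01 (SE 0.07) in the authors' deposited table. CCN2, which TGF-beta also induces, had a log2 fold change of 0.09 (adjusted p = 0.581) in the authors' deposited table. SMURF2, a ubiquitin ligase that limits the pathway, rose 1.45-fold (SE 0.08 in log2) by the authors' deposited table. The receptors gave little: TGFBR1 and TGFBR3 are listed at 0, which is no proof of silence. TGFBR2 had a base mean of 8.91 with a log2 fold change of -0.35 (adjusted p = 0.594) in the authors' deposited table.

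In the adenosine list, 7 of 22 genes were tested, and the authors' deposited table calls 2 of them higher and 2 lower (median 0.05, log2). ADORA2B, an adenosine receptor, rose 1.24-fold (SE 0.09 on the log2 scale, adjusted p = 0.00223) and PANX1, a channel that releases ATP, rose 1.19-fold (adjusted p = 0.0416) in the authors' deposited table. ENPP1, an ectoenzyme that hydrolyses ATP to AMP, fell by 0.56 in log2 (SE 0.08), at an adjusted p of 5.37e-11 by the authors' deposited table. DPP4, a surface peptidase that binds adenosine deaminase, fell by 0.59 in log2 (SE 0.09), where the authors' deposited table has an adjusted p of 8.38e-10. ADA and ADK, which remove adenosine, are listed at 0 in the authors' deposited table. Each has 4 accessions, and 48.1% of protein-coding genes with 4 accessions are listed at 0, so this is no proof of silence.

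Among B7 relatives and regulators of PD-L1, the authors' deposited table tests 7 of 18 genes and calls 3 higher and 2 lower (median 0.29, log2). NCR3LG1 (B7-H6), a ligand that activates natural killer cells, rose 1.56-fold (SE 0.13 on the log2 scale, adjusted p = 3.75e-06) in the authors' deposited table. IRF2, an interferon regulatory factor, rose 1.27-fold (adjusted p = 0.0155) in the authors' deposited table. CMTM6 and CMTM4, membrane proteins that protect PD-L1 from degradation, fell by 0.26 (log2, SE 0.08) and 0.28 (SE 0.10), and the authors' deposited table gives adjusted p-values of 0.00436 and 0.027. CMTM6 did not stand apart from its surroundings: neighbouring genes had a median of -0.35, and relative to them its log2 fold change was 0.09 (adjusted p = 0.482). JAK1, JAK2 and IFNGR2, with 8, 7 and 2 accessions, are listed at 0 in the authors' deposited table. Of protein-coding genes, 47.4% of those with 4 or more accessions and 44.7% of those with 2 to 3 are listed at 0. The listing of these 3 genes is therefore no proof of silence. The 7 reads of IRF1, by the noncoding accession NR_149069, were all in knockout libraries (0, 3 and 4), without an adjusted p in the authors' deposited table.

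Of the nectins and nectin-like proteins, 6 of 10 genes were tested, and the authors' deposited table calls 2 of these higher and 0 lower (median 0.24, log2). NECTIN1, a cell adhesion protein that binds NECTIN3, rose 3.35-fold (SE 0.24 on the log2 scale, adjusted p = 3.39e-12) from a base mean of 112 in the authors' deposited table. AFDN (afadin), which anchors nectins to the actin skeleton, rose 2.21-fold (SE 0.24 on the log2 scale, adjusted p = 1.45e-05) from a base mean of 104 in the authors' deposited table. NECTIN1 has 3 accessions and AFDN 6, and these values are of the accession with the highest base mean. Whether they describe the whole gene is not settled. NECTIN3 did not pass, at -0.23 in log2 (SE 0.12), and has an adjusted p of 0.187 by the authors' deposited table, a change close to that of NECTIN2. In the galectin list, the authors' deposited table calls 1 of 3 tested genes higher and 0 lower (median 0.05, log2). That gene was LGALS3BP, a secreted galectin-binding glycoprotein, which rose 1.94-fold (SE 0.09 on the log2 scale, adjusted p = 1.79e-23) in the authors' deposited table. LGALS1 (galectin-1), with a base mean of 8347, was at 0.05 in log2 (SE 0.11), and its adjusted p was 0.831 in the authors' deposited table.

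The cognate receptors of lymphocytes were near the floor. PDCD1, CTLA4, CD96, CRTAM and TMIGD2 are listed at 0 and the highest base mean of the 10 was 10.6, that of HAVCR2 (TIM-3), in the authors' deposited table. In the authors' deposited table HAVCR2 rose by 1.39 (log2, SE 0.38), with an adjusted p of 0.00176. Of 2 tested receptors 1 was called higher and 0 lower, with a median of 0.71. Leucocyte markers gave a summed base mean of 52.4 over 14 genes, 42.6 of it from CD68, a lysosomal protein; 9 were at 0, among them PTPRC, CD4, CD8A and CD14, and neither of the 2 tested was called in the authors' deposited table (median -0.08). Of 5 endothelial markers 3 were tested and 0 were called in the authors' deposited table (median 0.08), with KDR at a base mean of 556. Of 10 glioblastoma and astrocyte markers 6 were tested, and the authors' deposited table calls NES and CHI3L1 higher and VIM and SOX2 lower (median -0.23), VIM at a base mean of 126476 and GFAP, S100B and AQP4 at 0. VIM lost its call with scaled Wald scores (adjusted p = 0.259), in the 1.5-fold test (adjusted p = 1) and relative to neighbouring genes (-0.17 in log2, adjusted p = 0.113). PTPRC, CD4, CD8A, CD14, GFAP and AQP4 each have 4 or more accessions, and 47.4% of such protein-coding genes are listed at 0. Their listing at 0 is therefore no proof of absence. The part of the cell type markers in the results on the ligands was not tested.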

How the data were processed

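The data are 1 table of the authors' own comparison of 3 EGFR+vIII TLR2 KO libraries with 3 EGFR+vIII libraries, with 1 line for each RefSeq accession and nothing per library. The submitters' processing notes name STAR, DESeq2 and hg38 but no version or setting. Library kit, read counter and annotation release: not given in the sources used here. Per the file headers, the authors deposited a base mean, read here as a signal of abundance in counts divided by size factors. They also deposited a log2 fold change with its standard error, a Wald score, a p-value and an adjusted p. The deposited score equals the fold change over its SE (largest gap 5.39e-07), and a Benjamini-Hochberg adjustment of the 10303 p-values returns the adjusted p as deposited (largest gap 4.48e-07). The largest SE, 0.38, even at few reads shows fold changes drawn towards 0, so changes of genes with few reads are understated. Missing adjusted p-values stayed missing.

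Accessions were matched to symbols with RefSeq's gene table for GRCh38.p14 (98.8% of 67933), the build the submitters' notes call hg38. Base means sum to 11240272, the mean number of assigned normalized reads per library. Size factors, recovered from the 6 values that 1 read takes, ranged from 0.928 to 1.07, and single-read accessions put 3 libraries with the higher and 3 with the lower side of the comparison. Whole reads per library were taken only where a base mean had 1 solution within 2e-09; all 1250 distinct base means checked near those of CD274 and PVR had a solution and 1240 had exactly 1. Levels per group follow from the base mean and the deposited fold change for groups of equal size. A count test over libraries, the first choice for a table of counts, could not be run, and the deposited adjusted p under 0.05 was used. Fold intervals are at 95%. Calculations used Python 3.11.15, numpy 2.4.6, pandas 2.3.3 and scipy 1.17.1, and the calls and the read recovery were tested on simulated data. Motifs of 10 letters are given by name; the interferon response element and the NF-kB site were searched as fixed letter patterns with open positions.

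By rule the text names all 10 ligands and, per list, at most the 6 called genes with the smallest adjusted p; a called gene that is counted but not named is not reported here. Uncalled genes of the lists that are given with values (CCN2, TGFBR2, NECTIN3, LGALS1 and IRF1) were chosen after their values were seen, and the 4 nearest tested genes of NT5E and TGFB1 by distance. The members and lists were chosen with earlier results of these data known. The alternatives were a test against a 1.5-fold minimum, scaled Wald scores, an adjusted p under 0.01, a base mean of at least 100, any tested accession, and fold changes relative to the median of at least 10 tested genes within 5 Mb.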

Additional observations from a re-analysis of the deposited data

How the results depend on the processing

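Both calls among the ligands, 1 higher and 1 lower, held relative to neighbouring genes. They also passed with any tested accession, the base mean minimum of 100 and the cut-off of 0.01, but these were weak checks. NT5E and TGFB1 have 1 tested accession each, and their base means, 435 and 2966, lie above that minimum. Their deposited adjusted p-values, 0.000177 and 4.26e-05, were only read again against 0.01. When a minimum change of 1.5-fold was tested, 0 ligands were called higher and 0 lower, and with scaled Wald scores likewise 0 and 0, with an adjusted p of 0.147 for NT5E and 0.0784 for TGFB1. By construction, the first test asks for a larger change and the second widens the null. Of the genes in the 6 lists, 10 were called higher and 9 lower. The 1.5-fold test left 2 and 2 (NECTIN1 and LGALS3BP higher, ITGB8 and TGFBI lower), and scaled scores left 5 and 5. Over all accessions these settings called 408 and 893, against 2417 by the deposited adjusted p. CMTM6 changed sign relative to neighbouring genes, to 0.0885 on the log2 scale (adjusted p = 0.482); the cause was not tested. Leaving out a replicate was not run, since the table holds no value per library. No paired analysis was possible because the table holds no value per library that could be tied to a replicate number. Few reads limit CD274, PVR and CD276, and ENTPD1, TGFB2 and LGALS9 cannot be judged.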

Other observations

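Recovered reads gave 2 further values on immune genes with few reads, picked after their values were seen. TIGIT, the inhibitory receptor that PVR and NECTIN2 bind, had 3, 4 and 5 reads in the EGFR+vIII libraries and 0, 0 and 1 in the knockout libraries. The groups did not overlap, and the deposited p was 0.131 without an adjusted p. CD3E, a chain of the T cell receptor complex, had no read in the EGFR+vIII libraries and 2, 3 and 10 in the knockout libraries, with a deposited p of 0.0549. Among 1032 accessions with a base mean of 2 to 3, the reads of the groups did not overlap in 12.4%, so single cases of this kind are common in the table.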
